A study of Mus musculus with 10 samples.

Results

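Ligand-gated ion channels for the classical transmitters open within milliseconds of binding GABA, glycine, acetylcholine, serotonin or glutamate. The GABA-A, glycine, nicotinic and 5-HT3 receptors are pentamers of the Cys-loop superfamily, and the glutamate receptors of the AMPA, kainate, delta and NMDA families are tetramers. Which subunits a sensory neuron makes sets the conductance, ion selectivity and drug response of its receptors, and in sensory ganglia GABA-A receptors and nicotinic receptors sit on somata, axons and central terminals. The genes described here are the protein-coding mouse genes with symbols of these families, 60 of the 55414 gene IDs in the files. They comprise 19 GABA-A, 5 glycine, 16 nicotinic, 2 5-HT3, 4 AMPA, 5 kainate, 2 delta and 7 NMDA receptor genes. GABA-B receptor genes are not among them, and 2 noncoding antisense genes, Grin1os and Chrna1os, were left out.

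RNA was sequenced from microdissected trigeminal ganglia, the sensory ganglia of the face, of C57Bl6 mouse embryos at E13.5. The 5 knockout libraries (replicates 16, 29, 42, 49 and 50) carry the genotype Prdm12-/- with Sox10 Venus+, and the 5 wild-type libraries (replicates 22, 24, 32, 35 and 45) carry Prdm12+/+ with Sox10 Venus+. All 10 therefore share the Sox10 Venus allele or transgene, which the labels do not describe further, and there was no group without it. The loss of Prdm12, a zinc finger gene needed for nociceptor development, is constitutive per the series title, the deleted part of the gene is not given, and no sorting is named, so glia, vessels and neighbouring tissue may be included. Whether every library stands for its own embryo is not stated. The p-values then describe only sample-to-sample spread, part of which may be technical. Sample titles begin with another letter in each genotype, and what that letter marks cannot be told apart from genotype.

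Total counts were 3258008 in knockout 49, 13603690 in knockout 29 and 27308327 to 33556002 in the other 8 libraries. At the depth of knockout 49, 3 counts correspond to 0.869 CPM (counts relative to a fixed library total, scaled with TMM factors), and 13 of the 46 tested members had under 10 counts there. Prdm12 ranged over 8.74 to 42.7 CPM in Prdm12-/- ganglia and 74.3 to 264 CPM in Prdm12+/+ ganglia (log2 fold change -3.32, SE 0.49, adjusted p = 0.0156). Tissue markers set some libraries apart. Knockout 16 had the highest summed level of 16 central nervous system markers (529.7 CPM, against 205 to 345 CPM in the remaining Prdm12-/- libraries and 33.2 to 273 CPM in Prdm12+/+ ganglia). Zic1 and Zic4 weighed heavily in this sum, at 175 and 52.4 of 268 CPM in knockout 42, where Pax2 was at 0.178 CPM. By the mean log2 CPM of the 13 tested markers, knockout 16 was again highest (3.79). Knockout 42 (1.02) lay below wild-type 22, 24 and 45 (1.65, 2.80 and 2.18). Knockout 29 had the highest summed level of 9 glial markers (5204 CPM, against 1384 to 2601 CPM in the other 9). Wild-type 32 and 35 had the highest general neuronal scores (mean log2 CPM of 16 genes, 9.73 and 9.75, others 8.51 to 9.35) and the lowest summed mesenchyme markers (707 and 988 CPM, others 2841 to 10576 CPM). The 11 nociceptor markers summed to 429 to 601 CPM in Prdm12-/- ganglia and 1287 to 3511 CPM in Prdm12+/+ ganglia. In bulk tissue, fewer cells of a type and less RNA per cell cannot be told apart.

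No ligand-gated channel gene passed an adjusted p of 0.05. Of the 60 genes, 46 had enough counts to be tested, and 0 rose and 0 fell by edgeR's quasi-likelihood test. Of all 18005 tested genes 0.467% were called, 0.0944% as higher and 0.372% as lower. The groups overlapped in all 46, while 4.21% of all tested genes had groups that did not overlap. An unadjusted p under 0.05 was reached by 10 members, 21.7% of those tested, against 13.1% of all tested genes (6.40% higher and 6.73% lower), and their adjusted p-values were 0.169 to 0.348. Of these 10, Gria3, Grin2d, Htr3a, Chrna4, Gria1 and Gabrq had fold changes above 0, and below 0 were Chrnb4, Chrna3, Chrna5 and Grik4. Other tools made a few calls. DESeq2 called Chrnb4 and Gria3 (3.47% of all genes were called). Limma voom with sample quality weights called Chrnb4, Chrna3 and Gria3 (13.0% of all genes were called). On simulated counts, drawn with the gene-wise spread that edgeR estimated, DESeq2 made a larger share of false calls than edgeR or limma voom. The simulated libraries did not differ in tissue content, so the false calls of any tool in the present libraries are not known. Without knockout 16 and 29 edgeR called Chrnb4 alone, with 0.705% of all genes called. An absolute log2 fold change over 1 was seen in 9 members, 19.6%, against 5.74% of all tested genes. Such shares of members are descriptive only, because the members were chosen with earlier results of these data known. The median log2 fold change was 0.09 for the members tested and -0.03 for all genes tested, and the members' median was -0.15 without knockout 16 and -0.05 with limma voom.

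**Figure D1:**
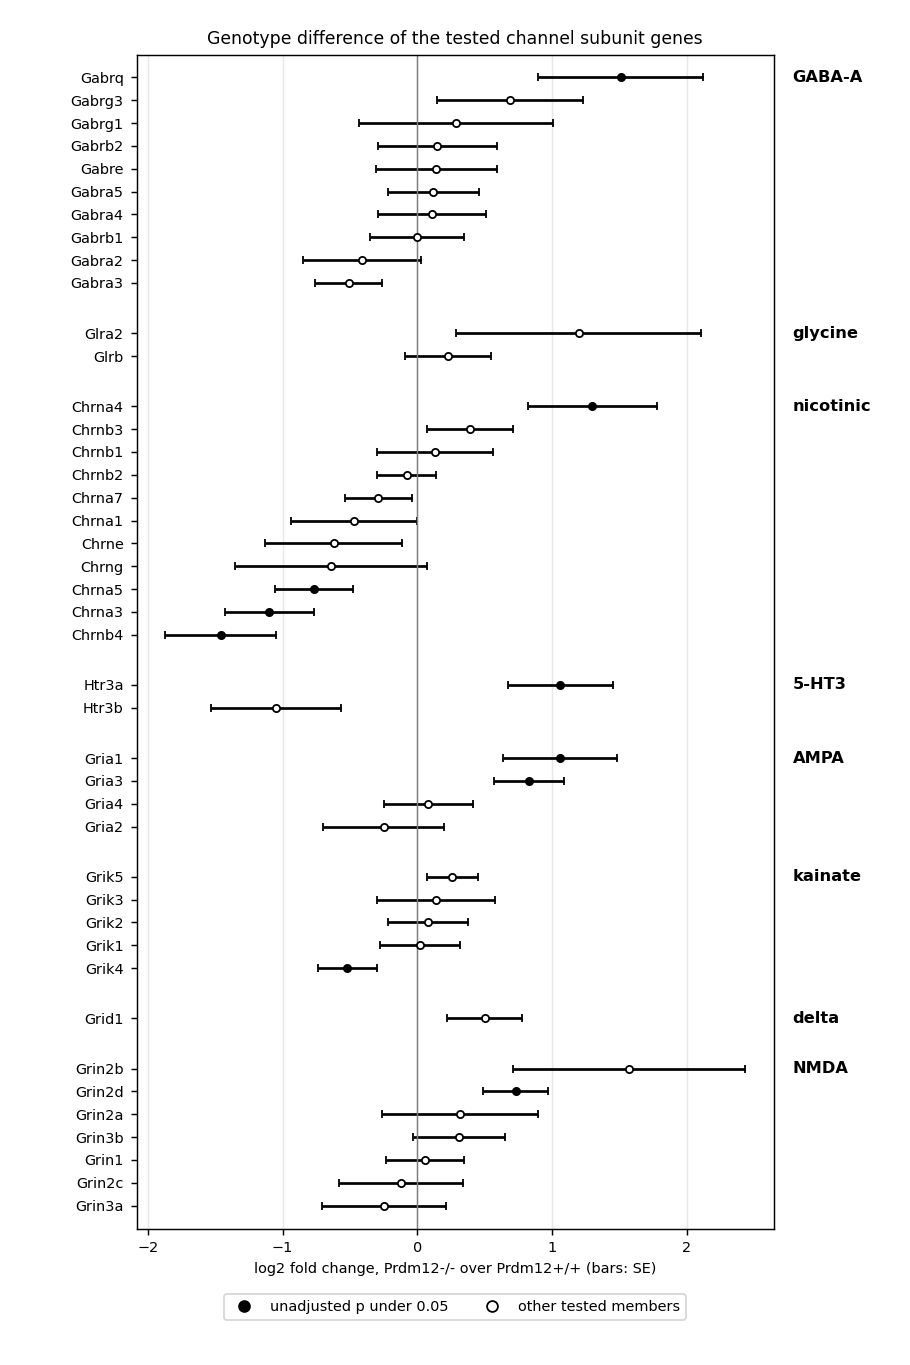
Log2 fold change of 42 tested channel genes, Prdm12-/- over Prdm12+/+, with its standard error, grouped by receptor family; filled points have an unadjusted p under 0.05. Nicotinic genes run from -1.46 (Chrnb4) to 1.30 (Chrna4), and GABA-A genes from -0.51 (Gabra3) to 1.51 (Gabrq).

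Of 11 tested nicotinic genes 8 had a fold change below 0, with a median log2 fold change of -0.47. Over all 18005 tested genes 9677 were below 0, with a median of -0.03. The 8 include the muscle-type genes Chrna1, Chrng and Chrne (-0.47, -0.64 and -0.62), while Chrnb1, also of muscle type, was at 0.13. The lowest fold changes of the family were those of Chrnb4, Chrna3 and Chrna5, which encode the beta4, alpha3 and alpha5 subunits. Alpha3 and beta4 form the main nicotinic receptor of autonomic ganglia, and alpha5 joins it as an accessory subunit. The 3 genes are direct neighbours on chromosome 9 with no exon overlap between them in the annotation. They are 1 of 11 groups of neighbouring members, which hold 29 genes in all. Such a group allows at most 1 other protein-coding gene between members. RefSeq start windows of the 3 genes are shown because these neighbours had the lowest fold changes of the family (250 bases before to 50 after each annotated start, 5′ to 3′ on the gene's strand, with CANNTG, the E-box, in capitals). Chrna5 has 2 annotated starts.
Chrna5, GRCm38.p6 chr9:54980630-54980929 (+ strand): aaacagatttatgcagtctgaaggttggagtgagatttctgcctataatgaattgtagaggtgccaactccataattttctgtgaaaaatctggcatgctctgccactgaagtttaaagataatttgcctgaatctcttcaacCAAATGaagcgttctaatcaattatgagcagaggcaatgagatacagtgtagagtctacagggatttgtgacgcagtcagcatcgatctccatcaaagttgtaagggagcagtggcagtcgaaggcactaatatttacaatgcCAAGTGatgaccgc
Chrna5, GRCm38.p6 chr9:54981238-54981537 (+ strand): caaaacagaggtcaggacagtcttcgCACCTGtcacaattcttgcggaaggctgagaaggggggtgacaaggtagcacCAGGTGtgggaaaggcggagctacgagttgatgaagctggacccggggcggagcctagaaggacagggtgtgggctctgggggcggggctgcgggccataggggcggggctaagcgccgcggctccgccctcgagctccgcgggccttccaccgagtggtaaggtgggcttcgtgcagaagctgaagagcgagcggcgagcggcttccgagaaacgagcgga
Chrna3, GRCm38.p6 chr9:55026513-55026812 (- strand): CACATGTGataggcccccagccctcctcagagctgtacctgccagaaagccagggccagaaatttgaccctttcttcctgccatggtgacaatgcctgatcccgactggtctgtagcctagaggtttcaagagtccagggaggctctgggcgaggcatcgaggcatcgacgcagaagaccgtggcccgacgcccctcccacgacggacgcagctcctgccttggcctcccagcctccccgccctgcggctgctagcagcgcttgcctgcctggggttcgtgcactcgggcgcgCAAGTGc
Chrnb4, GRCm38.p6 chr9:55048495-55048794 (- strand): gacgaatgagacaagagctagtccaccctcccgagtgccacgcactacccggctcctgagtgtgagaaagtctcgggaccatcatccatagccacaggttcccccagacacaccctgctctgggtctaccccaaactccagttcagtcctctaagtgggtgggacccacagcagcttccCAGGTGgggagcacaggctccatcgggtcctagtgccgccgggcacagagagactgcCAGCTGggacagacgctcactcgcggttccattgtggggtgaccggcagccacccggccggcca
CANNTG, whose reverse complement is itself, occurred 2 to 3 times in each of these windows and at least once in 72.3% of all 32851 promoter windows in the table. GGGCGG, searched on both strands, occurred 4 times in the second Chrna5 window and once in the Chrna3 window, and in 35.7% of all windows. In the other windows these letters were not found.

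Chrnb4 was at 1.90, 3.23, 0.854, 1.16 and 1.01 CPM in knockout 16, 29, 42, 49 and 50, against 4.94, 2.40, 5.96, 5.63 and 3.63 CPM in wild-type 22, 24, 32, 35 and 45. Knockout 29 was the only knockout library above any wild-type library, wild-type 24, and knockout 49 rests on 4 counts. The log2 fold change was -1.46 (SE 0.41, adjusted p = 0.169). Chrna3 was at 28.1, 27.9, 11.5, 11.6 and 19.7 CPM in the same Prdm12-/- libraries, against 32.6, 24.5, 58.9, 61.9 and 35.6 CPM in Prdm12+/+ ganglia. Here 3 knockout libraries lay below all wild-type libraries and the other 2 above wild-type 24 alone (log2 fold change -1.10, SE 0.33, adjusted p = 0.210). Chrna5 was at 4.03, 2.12, 2.77, 2.90 and 4.30 CPM in Prdm12-/- ganglia, against 4.20, 4.06, 7.79, 7.17 and 4.47 CPM in Prdm12+/+ ganglia. For this gene 4 of 5 knockout libraries were below every wild-type library (log2 fold change -0.77, SE 0.29, adjusted p = 0.303). The highest values of all 3 genes came from wild-type 32 and 35, the libraries with the highest neuronal scores, and without both of them the log2 fold changes were -1.10 for Chrnb4, -0.58 for Chrna3 and -0.33 for Chrna5.

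Chrna4, whose alpha4 subunit pairs with beta2 in the brain's most common nicotinic receptor, was at 50.7, 17.9, 9.96, 11.00 and 13.3 CPM in Prdm12-/- ganglia, against 8.54, 14.4, 4.33, 5.29 and 9.68 CPM in Prdm12+/+ ganglia. Knockout 16, with the highest central nervous system markers, stood far above the rest (log2 fold change 1.30, SE 0.48, adjusted p = 0.298), and without it the log2 fold change was 0.63. Chrnb2, the beta2 subunit gene and the most abundant nicotinic gene per kilobase, was at 74.6 to 138 CPM in Prdm12-/- ganglia and 83.3 to 155 CPM in Prdm12+/+ ganglia (medians 118 and 99.4 CPM; adjusted p = 0.901). About 16.3% of its exon length overlaps Adar on the opposite strand, and the strand setting of the counting is not given. Chrna7, which forms homomeric receptors, was at 4.92 ± 1.02 CPM in Prdm12-/- ganglia and 6.04 ± 1.65 CPM in Prdm12+/+ ganglia (SD, n = 5 each), and Chrnb3 was at 5.75 ± 1.90 and 4.33 ± 1.66 CPM in the same order of groups. Neither passed the test.

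Of the muscle-type nicotinic genes, Chrng and Chrna1 were highest in the libraries with the highest skeletal muscle markers. Chrng, the gamma subunit of fetal muscle receptors, was at 0.629 to 2.10 CPM in Prdm12-/- ganglia and at 6.14, 0.703, 0.242, 1.06 and 2.89 CPM in wild-type 22, 24, 32, 35 and 45. The 14 skeletal muscle markers summed to 36.2 to 177 CPM in Prdm12-/- ganglia and to 363, 72.1, 19.9, 55.7 and 210.5 CPM in the same wild-type libraries, so the 2 highest libraries were the same in both measures. Of these markers Ckm had 0 counts in at least 1 library, and none of the 13 tested was called. Chrna1, the muscle alpha subunit gene, was at 1.96 ± 0.803 CPM in Prdm12-/- ganglia and 2.74 ± 1.81 CPM in Prdm12+/+ ganglia, with its highest values, 5.30 and 3.98 CPM, again in wild-type 22 and 45. Chrne, the epsilon subunit of adult muscle receptors, was the lowest tested nicotinic gene per kilobase (0.206 ± 0.0626 in Prdm12-/- ganglia and 0.333 ± 0.201 in Prdm12+/+ ganglia). Chrnb1, the muscle beta subunit gene, was at 3.86 to 12.5 CPM in Prdm12-/- ganglia and 2.46 to 9.84 CPM in Prdm12+/+ ganglia, with its highest value in knockout 49, which had 51.3 CPM of muscle markers. The part of muscle tissue in these values was not tested.

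**Figure D2:**
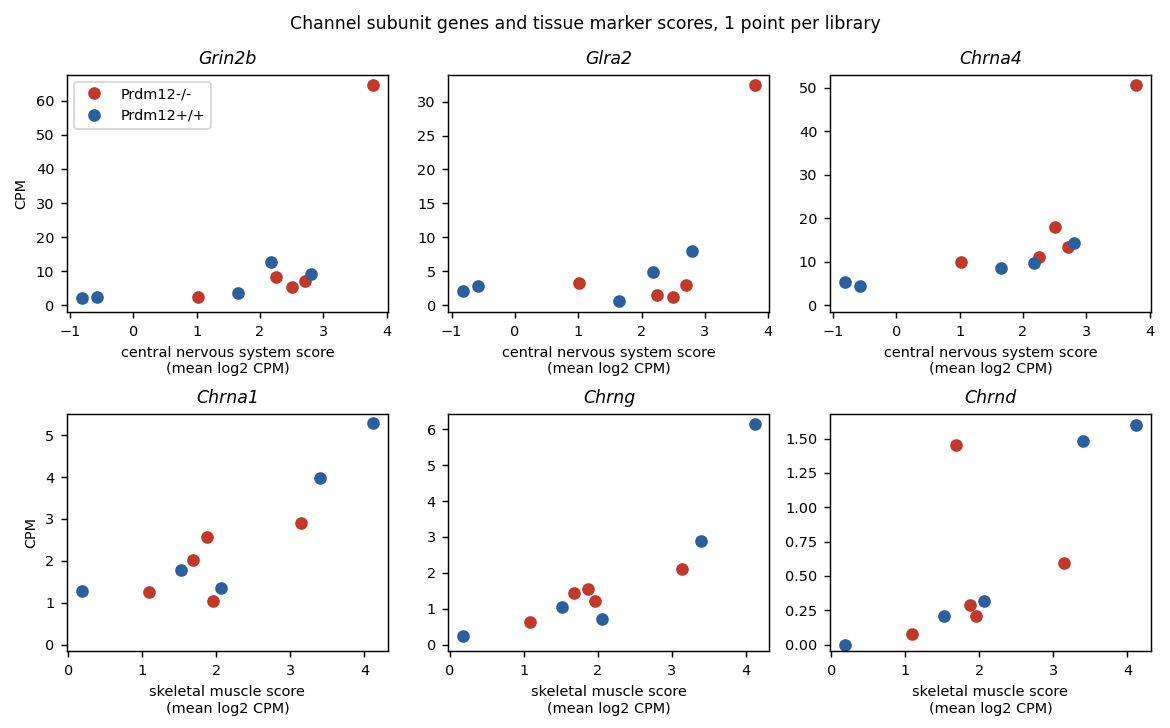
CPM of 6 channel genes (y axes) against the mean log2 CPM of the central nervous system markers (upper row) or the skeletal muscle markers (lower row), 1 point per library, Prdm12-/- in red and Prdm12+/+ in blue. Knockout 16 is the rightmost and highest point for Grin2b, Glra2 and Chrna4, and wild-type 22 is the rightmost and highest for Chrna1, Chrng and Chrnd.

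Both subunit genes of the 5-HT3 receptor, the cation channel among serotonin receptors, had fold changes over 2 and of opposite sign. Htr3a, the subunit that every 5-HT3 receptor needs, was at 33.5, 95.4, 24.9, 24.9 and 41.3 CPM in Prdm12-/- ganglia, against 12.8, 15.8, 31.4, 27.99 and 18.2 CPM in Prdm12+/+ ganglia. Of the knockout libraries 3 were above all wild-type libraries, the highest of them knockout 29, the library rich in glial markers (log2 fold change 1.06, SE 0.39, adjusted p = 0.296). With the neuronal score as a covariate Htr3a passed the threshold (log2 fold change 1.53, adjusted p = 0.0327, with 0.555% of all genes called). The log2 fold change was 0.59 without knockout 29 (adjusted p = 0.409), 0.55 with limma voom (adjusted p = 0.180) and 0.52 without knockout 16 and 29 (adjusted p = 0.457). Htr3b, which modifies the channel's conductance, was at 3.15 to 6.19 CPM in Prdm12-/- ganglia (median 4.63 CPM), and at 1.83, 5.66, 15.2, 15.5 and 10.2 CPM in Prdm12+/+ ganglia. The knockout values lay within the wild-type range (log2 fold change -1.05, SE 0.48, adjusted p = 0.383). Htr3a and Htr3b are neighbours on chromosome 9. Per kilobase of exon, Htr3a was at 21.1 ± 14.2 in Prdm12-/- ganglia and 10.2 ± 3.86 in Prdm12+/+ ganglia, and Htr3b at 1.93 ± 0.571 and 4.02 ± 2.48.

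**Figure D3:**
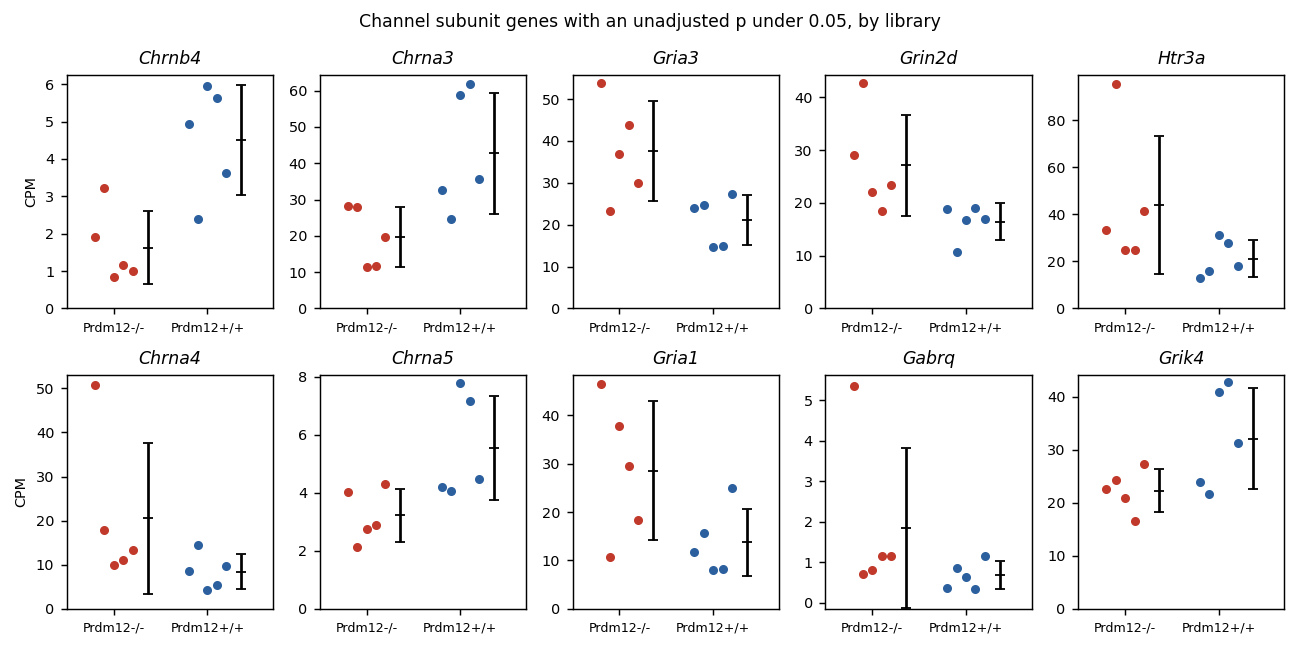
CPM in each library of the 10 channel genes with an unadjusted p under 0.05, Prdm12-/- (red) left of Prdm12+/+ (blue), with the mean and SD beside each group of 5. Every panel shows overlap between the groups, and the single high knockout points of Chrna4 and Gabrq are knockout 16 and that of Htr3a is knockout 29.

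Among AMPA receptor genes, which carry most fast excitatory transmission, Gria3 and Gria1 had log2 fold changes of 0.83 and 1.06, against -0.25 for Gria2, the most abundant of them per kilobase. Gria3 was at 53.9, 23.2, 36.9, 43.7 and 30.02 CPM in Prdm12-/- ganglia, against 24.1, 24.7, 14.7, 14.99 and 27.3 CPM in Prdm12+/+ ganglia. All knockout libraries but knockout 29 were above every wild-type library (log2 fold change 0.83, SE 0.26, adjusted p = 0.220). Gria1 was at 46.4, 10.7, 37.8, 29.5 and 18.3 CPM in Prdm12-/- ganglia, against 11.8, 15.7, 7.97, 8.26 and 24.9 CPM in Prdm12+/+ ganglia (log2 fold change 1.06, SE 0.42, adjusted p = 0.322). For both genes wild-type 32 and 35 were the lowest libraries, and without both the log2 fold changes were 0.61 for Gria3 and 0.75 for Gria1. Knockout 16 was the highest library for both genes, and without it the log2 fold changes were 0.66 for Gria3 and 0.81 for Gria1. Gria2, whose edited subunit makes AMPA receptors impermeable to calcium, was at 55.2 to 220.3 CPM in Prdm12-/- ganglia and 38.1 to 219.5 CPM in Prdm12+/+ ganglia (medians 84.2 and 131 CPM; adjusted p = 0.834). Gria4 was at 36.6 ± 16.1 and 34.8 ± 11.9 CPM in the same order.

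Kainate receptor genes are a known feature of sensory ganglia, and Grik5, a subunit that needs a partner to form a channel, was the most abundant channel gene per kilobase in both groups. It was at 32.7 ± 9.60 CPM per kilobase in Prdm12-/- ganglia and 27.3 ± 3.93 in Prdm12+/+ ganglia (adjusted p = 0.566), while the other 4 kainate genes lay between 1.74 and 3.74 in Prdm12-/- ganglia and between 1.65 and 5.39 in Prdm12+/+ ganglia. Grik4, the other partner-dependent subunit gene, was at 22.6, 24.2, 20.9, 16.5 and 27.3 CPM in Prdm12-/- ganglia, against 23.9, 21.7, 40.9, 42.8 and 31.2 CPM in Prdm12+/+ ganglia. Its log2 fold change was -0.52 (SE 0.22, adjusted p = 0.348), and without both wild-type 32 and 35 it was -0.14. Grik1 was at 10.4 to 18.4 CPM in Prdm12-/- ganglia and 6.94 to 20.1 CPM in Prdm12+/+ ganglia, and Grik2, the lowest of the family per kilobase, at 23.1 ± 10.9 and 21.9 ± 5.85 CPM in the same order. Grik3 was at 57.9 CPM in knockout 16, with 9.83 to 19.1 CPM across the remaining Prdm12-/- libraries, against 16.6 to 23.3 CPM in Prdm12+/+ ganglia. The delta receptor gene Grid1, whose product binds cerebellin bridges at synapses, was at 11.2 ± 4.85 CPM in Prdm12-/- ganglia and at 7.92 ± 1.44 CPM in Prdm12+/+ ganglia, and did not pass.

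NMDA receptors are built on Grin1, which was at 19.7 to 37.3 CPM in Prdm12-/- ganglia and 15.5 to 39.8 CPM in Prdm12+/+ ganglia (adjusted p = 0.949). Of its exon length of 9700 bases, 1307 overlap the antisense gene Grin1os. Of the 4 Grin2 genes, which set the kinetics of the receptor, Grin2d was the most abundant per kilobase, at 4.07 ± 1.43 in Prdm12-/- ganglia and 2.47 ± 0.514 in Prdm12+/+ ganglia. In CPM, Grin2d was at 29.01, 42.7, 22.01, 18.5 and 23.3 in Prdm12-/- ganglia, against 18.9, 10.6, 16.7, 19.02 and 17.01 in Prdm12+/+ ganglia. Only knockout 49 was not above every wild-type library (log2 fold change 0.73, SE 0.24, adjusted p = 0.249), and 9.66% of its exon length overlaps a gene on the opposite strand. Grin2b, the main partner of Grin1 in the embryonic brain, was at 64.6 CPM in knockout 16, with 2.28 to 8.40 CPM across the remaining Prdm12-/- libraries, against 2.18 to 12.7 CPM in Prdm12+/+ ganglia. Without knockout 16 the other knockout values lay inside the wild-type range. Grin2a, the lowest of the family per kilobase, was at 2.64 ± 1.43 and 2.17 ± 1.78 CPM, and Grin3a, whose subunit binds glycine, at 10.3 ± 7.13 and 12.4 ± 3.48 CPM.

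GABA-A receptors are the main chloride channels of this superfamily, usually made of alpha, beta and gamma subunits, and GABA depolarizes sensory neurons. Per kilobase, Gabra3 was at 7.02 ± 2.63 in Prdm12-/- ganglia and 10.04 ± 2.27 in Prdm12+/+ ganglia, and Gabra2 at 2.79 ± 1.30 and 3.72 ± 1.72 in the same order of groups. Of 13 tested GABA-A genes 7 had a fold change above 0 and 6 below, with a median log2 fold change of 0.11 (0.16 with DESeq2 size factors). The 5 tested alpha genes had a median of -0.39. Gabra3 was at 18.8 to 43.3 CPM in Prdm12-/- ganglia and 31.7 to 50.8 CPM in Prdm12+/+ ganglia, with 3 knockout libraries below all wild-type libraries (log2 fold change -0.51, SE 0.25, adjusted p = 0.406). Gabrq, the theta subunit gene, was at 5.36, 0.708, 0.818, 1.16 and 1.15 CPM in Prdm12-/- ganglia, against 0.367, 0.863, 0.624, 0.341 and 1.16 CPM in Prdm12+/+ ganglia. Knockout 16 alone stood above the wild-type range (log2 fold change 1.51, SE 0.61, adjusted p = 0.334), and the log2 fold change without it was 0.49. Gabrg3 was the lowest tested GABA-A gene per kilobase, at 0.109 ± 0.0738 and 0.0713 ± 0.0366.

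Glycine receptors were represented by Glrb, the anchoring beta subunit gene, and Glra2, the fetal alpha subunit gene. Glrb was at 16.4, 4.48, 20.8, 15.3 and 18.3 CPM in Prdm12-/- ganglia, against 11.03 to 14.4 CPM in Prdm12+/+ ganglia, so that 4 knockout libraries were above and knockout 29 below every wild-type library (adjusted p = 0.779). Glra2 was at 32.4 CPM in knockout 16, with 1.18 to 3.31 CPM across the remaining Prdm12-/- libraries, against 0.667 to 7.93 CPM in Prdm12+/+ ganglia (adjusted p = 0.573). For Grin2b, Glra2, Grik3, Chrna4 and Gabrq the highest library was thus knockout 16. It was also the highest for Gria1, Gria2, Gria3, Gria4, Grid1, Grik2, Grin2a and Grin3a, among others. The part of central nervous tissue in these values was not tested. Central nervous system markers with 0 counts in at least 1 library were Pax2, Lhx1, En1, En2, Olig1, Olig2 and Gbx2.

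**Figure D4:**
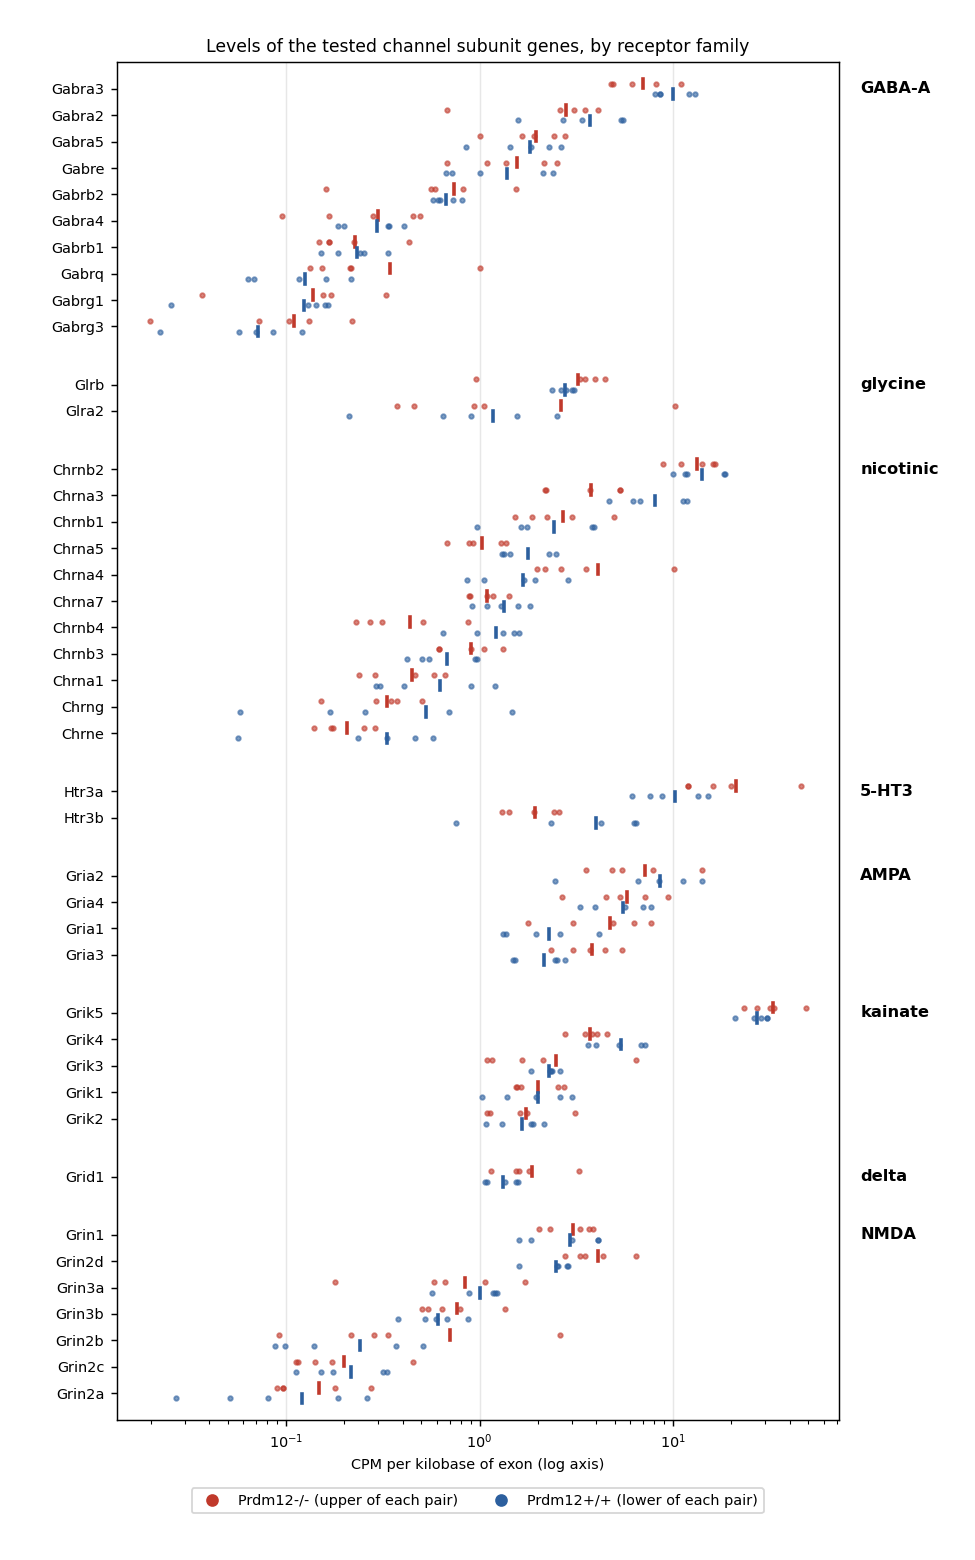
CPM per kilobase of exon (log axis) of 42 tested channel genes in each library, ordered within each receptor family by the wild-type mean, with Prdm12-/- (red) above Prdm12+/+ (blue) and the group mean as a bar; the 0 of Gabrg1 in knockout 29 is not drawn. Grik5, Chrnb2 and Htr3a are the highest genes of their families in both groups.

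Of the 60 genes, 14 had too few counts to be tested and stayed at or below 3.93 CPM in every library: Chrna2, Chrna6, Chrna9, Chrna10, Chrnd, Gabra6, Gabrd, Gabrp, Gabrr1, Gabrr2, Gabrr3, Glra1, Glra3 and Glra4. Gabra6, a cerebellar granule cell subunit, had 1 count in all libraries together and Chrna2 had 4, all in Prdm12-/- ganglia. The highest value, 3.93 CPM, was Gabrp in knockout 29. Chrna9 and Chrna10, subunits of the hair cell receptor, had 13 counts each in all libraries together. Chrnd, the delta subunit gene of muscle receptors, was highest in wild-type 22 and 45 (1.60 and 1.48 CPM) and in knockout 49 (1.45 CPM, which is 5 counts).

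Ratios between subunit genes within a library do not depend on library size and show only unequal change. Of 9 ratios compared with exact two-sided permutation tests, 2 separated the genotypes completely, each at p = 0.00794, the smallest that 5 against 5 libraries allow (adjusted p = 0.0357 over the 9). The log2 ratio of Chrnb4 to Chrnb2 was -6.15 ± 0.50 in Prdm12-/- ganglia and -4.70 ± 0.29 in Prdm12+/+ ganglia (SD, n = 5 each), with ranges of -6.76 to -5.38 and -5.07 to -4.27. Prdm12-/- ganglia thus had less Chrnb4 relative to Chrnb2 in 5 of 5 libraries. The log2 ratio of Gabra5 to Gabra2 was -1.72 ± 0.53 in Prdm12-/- ganglia and -2.34 ± 0.17 in Prdm12+/+ ganglia, with ranges of -2.04 to -0.78 and -2.61 to -2.22, so that Gabra5 was higher relative to Gabra2. Knockout 29 was the highest at -0.78, and without it the difference fell to 0.38, against 0.62 with it. Leaving out any wild-type library brought the adjusted p of both ratios to between 0.0714 and 0.107, with the differences at -1.54 to -1.34 and 0.55 to 0.64. Chrna3 to Chrna7 differed by -0.85 (p = 0.0317 in the exact permutation test, adjusted p = 0.0952), and without knockout 29 by -1.07 (adjusted p = 0.0238).

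The other ratios did not pass. Gria1 to Gria2 was at -1.97 ± 0.69 in Prdm12-/- ganglia and -3.19 ± 1.44 in Prdm12+/+ ganglia (difference 1.22, exact permutation p = 0.127, adjusted p = 0.286), and Grin3a to Grin1 was at -1.80 ± 1.17 and -1.14 ± 0.40 (adjusted p = 0.514). The differences were 0.34 for Grin2b to Grin2a, 0.06 for Grik1 to Grik2 and 0.38 for Chrng to Chrne, each with an adjusted p of 0.770.

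**Figure D5:**
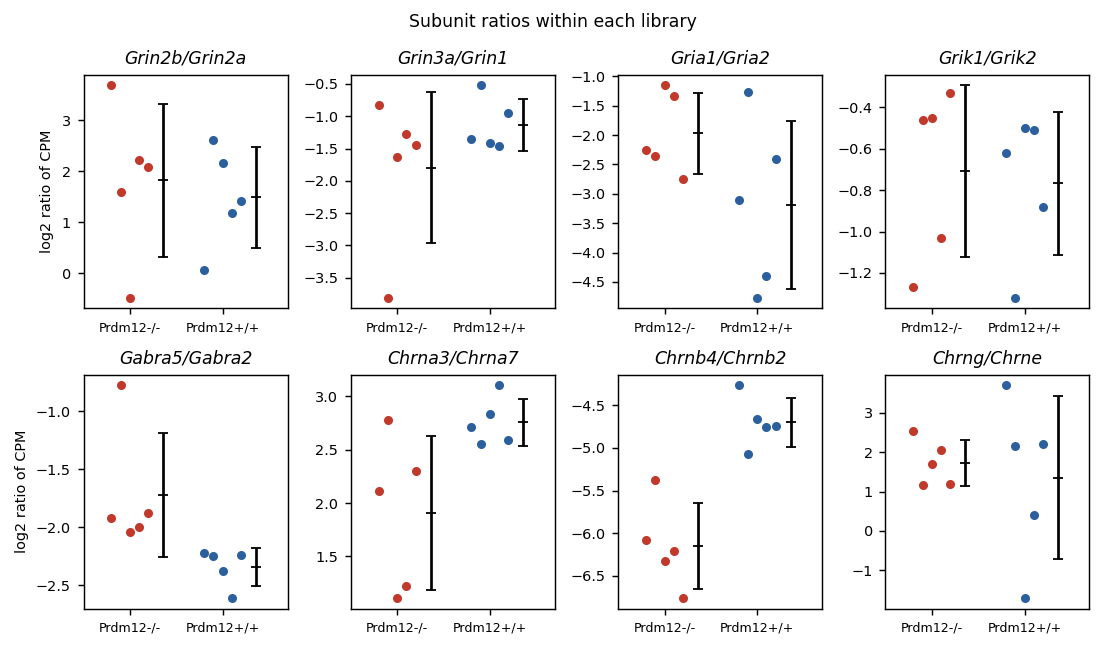
Log2 ratio of CPM of 8 subunit gene pairs within each library, Prdm12-/- (red) left of Prdm12+/+ (blue), with the mean and SD beside each group of 5. The groups are fully separated for Chrnb4/Chrnb2 and Gabra5/Gabra2 and overlap in the other 6 panels.

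Genes that anchor, traffic or modify these receptors, or make and load their transmitters, were read from 4 lists. The lists were chosen with earlier results of these data known, so their shares and medians are descriptive only. Of 30 tested partners of glutamate receptors, 1 rose, 0 fell and 29 did not pass, against 0.467% of all tested genes called. An unadjusted p under 0.05 was reached by 15 of the 30 (12 higher and 3 lower), against 13.1% of all tested genes, and the median log2 fold change was 0.32, against -0.03 for all tested genes. Among the 12 higher, Cacng2, Cacng3, Cnih3, Cbln1, Cbln4, C1ql1 and Nptxr were highest in knockout 16. Cacng5, Shisa6, C1ql3, Nptx1 and Nptx2 were highest in other knockout libraries. The called gene was C1ql3, a secreted ligand of synaptic adhesion receptors, at 3.20, 1.73, 2.45, 2.32 and 3.91 CPM in Prdm12-/- ganglia, against 1.23, 0.927, 0.485, 0.614 and 0.704 CPM in Prdm12+/+ ganglia (log2 fold change 1.79, SE 0.33, adjusted p = 0.0446). The call was made in 8 of 19 alternative analyses, whose adjusted p ranged from 2.80e-05 to 0.286. Nptx1, a pentraxin that clusters AMPA receptors, was named after its values were seen and also separated the groups, at 22.2 to 53.97 CPM in Prdm12-/- ganglia and 11.3 to 18.7 CPM in Prdm12+/+ ganglia (adjusted p = 0.0603). Cacng5, named in the same way, separated them too, at 41.1 to 71.2 CPM in Prdm12-/- ganglia and 18.9 to 38.6 CPM in Prdm12+/+ ganglia (adjusted p = 0.129). Groups did not overlap in 4.21% of all tested genes. Gsg1l, which encodes an auxiliary AMPA receptor subunit and was also named after its values were seen, was at 28.3, 10.3, 3.70, 4.05 and 7.62 CPM in Prdm12-/- ganglia, against 21.5 to 48.9 CPM in Prdm12+/+ ganglia (log2 fold change -1.76, SE 0.50, adjusted p = 0.183). All knockout libraries but knockout 16 were below every wild-type library. Among 17 partners of GABA-A and glycine receptors 0 were called and 4 had an unadjusted p under 0.05 (23.5%), with a median of -0.01. Mdga1, which binds neuroligins, was at 238 ± 77.9 CPM in Prdm12-/- ganglia and 143 ± 37.1 CPM in Prdm12+/+ ganglia (adjusted p = 0.250), and Hap1, a trafficking adaptor, at 50.4 ± 28.9 and 23.6 ± 5.40 CPM (adjusted p = 0.277).

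Of 13 tested partners of nicotinic and 5-HT3 receptors 0 were called and 3 had an unadjusted p under 0.05 (23.1%, against 13.1% of all tested genes), with a median log2 fold change of 0.25. Lypd1, which encodes a Ly6 protein that modulates nicotinic receptors, was at 22.1, 8.34, 18.4, 14.5 and 14.5 CPM in Prdm12-/- ganglia, against 3.64 to 8.70 CPM in Prdm12+/+ ganglia (log2 fold change 1.17, SE 0.29, adjusted p = 0.118). Lrp4, the agrin receptor gene, was at 50.1 ± 11.4 and 29.8 ± 9.40 CPM (adjusted p = 0.220). Of 19 tested genes for transmitter synthesis, loading and chloride cotransport 0 were called and 4 had an unadjusted p under 0.05 (21.1%, against 13.1% of all tested genes), with a median log2 fold change of 0.69, against -0.03 for all tested genes. Knockout 16, the library with the highest central nervous system markers, held the highest values of the GABA and glycine genes Gad1, Gad2, Slc32a1 and Slc6a5, at 38.9, 42.6, 18.7 and 28.01 CPM. None of these 4 exceeded 5.66 CPM in another knockout library or 6.55 CPM in a wild-type library, and the part of central nervous tissue was not tested. Tph2, named after its values were seen, had groups that did not overlap. It was at 0 to 2.05 CPM in Prdm12-/- ganglia, with 0 counts in knockout 49, and 2.25 to 3.64 CPM in Prdm12+/+ ganglia (log2 fold change -1.42, SE 0.46, adjusted p = 0.237). Slc18a3, the vesicular acetylcholine transporter gene, was at 10.1 CPM in knockout 16, with 0.869 to 3.86 CPM across the remaining Prdm12-/- libraries, against 0.367 to 1.02 CPM in Prdm12+/+ ganglia (adjusted p = 0.111). Chat, which encodes the enzyme that makes acetylcholine, was at 4.001 CPM in knockout 16, with 0.384 to 1.14 CPM across the others, against 0.0667 to 0.671 CPM in Prdm12+/+ ganglia (adjusted p = 0.212). Both are also in the list of 9 autonomic and visceral neuron markers, which summed to 112 to 330.3 CPM in Prdm12-/- ganglia and 86.2 to 141 CPM in Prdm12+/+ ganglia.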

How the data were processed

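The deposited files hold raw counts per Ensembl gene, 1 file per library, made by the authors. The submitters' processing notes name bcl2fastq (2.20.0.422), STAR (2.7.10a), featureCounts (1.5.0-p1) and the builds GRCm39 and mm10, with no roles given for the builds. Neither annotation release nor strandedness was stated, so a read in overlapping genes could count for either. Members and lists were chosen with earlier results of these data known. Symbols, biotypes and exon lengths came from GENCODE M21 tables, and levels per kilobase use the union of all annotated exons. Genes were kept with filterByExpr (minimum count 10) and the 5 knockout and 5 wild-type libraries compared with edgeR 4.0.16 (TMM, glmQLFit, glmQLFTest; R 4.3.3), Benjamini-Hochberg over 18005 genes, threshold 0.05. Fold changes are knockout over wild type. Log2 ratios used a prior count of 2 and exact tests over 252 assignments. Alternatives used DESeq2 1.42.0, limma 3.58.1, other filters, covariates and left-out libraries. The code was tested on simulated data. Libraries of the same genotype did not repeat each other: the chi-square per gene was at least 9.88 in the 20 pairs within genotypes. Named genes are members with an unadjusted p under 0.05, the highest and lowest of each family per kilobase, members with 1 library apart by Dixon's test, and for each partner list the called gene or the 2 smallest p-values; other genes were named after their values were seen. Values of some tested members are not reported here, though counts and medians over the families and adjustments include them.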

Additional observations from a re-analysis of the deposited data

Results flagged for a closer look

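In 84 groups of 5 libraries (42 members, each genotype), 5 had 1 library apart from the other 4 by Dixon's test on log2 CPM, where chance flags about 1 in 20 groups. Of these, 2 were low values of knockout 29. Gabra2 was at 5.19 CPM there, against 19.98 to 31.3 CPM in the remaining Prdm12-/- libraries, and Glrb was at 4.48 CPM, against 15.3 to 20.8 CPM. Gabrq was at 5.36 CPM in knockout 16, against 0.708 to 1.16 CPM in the other knockout libraries. Grin2d was at 10.6 CPM in wild-type 24, against 16.7 to 19.02 CPM in the other wild-type libraries. Gabrg1, an alternative gamma subunit gene, was at 0.200 CPM in wild-type 22, against 1.02 to 1.30 CPM in the other wild-type libraries.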

How the results depend on the processing

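No member passed the threshold when any 1 library was left out (0 in each of 10 fits). The count past the threshold was 2 with DESeq2, 3 with limma voom, 1 with the neuronal score as covariate and 1 without knockout 16 and 29 (Chrnb4, log2 fold change -2.20, adjusted p = 0.0454, 0.705% of all genes called; chosen after seeing the data). Members with an unadjusted p under 0.05 numbered 6 to 12 with 1 library left out, 5 without wild-type 32 and 35, 6 without knockout 16 and 29, and 5 with the central nervous system score as covariate (added after seeing the data). Each of the 10 members kept its direction in all 18 or 19 alternatives. They were chosen by their p in the main fit, and the alternatives reuse the same libraries, so this is not independent support. Alternatives with an unadjusted p under 0.05 ranged from 5 of 19 for Grik4 to all 19 for Chrnb4 and Gria3. For Chrna5 they were 11 of 19, and for Gabrq 11 of 18. Prdm12 stayed lower, with log2 fold changes of -3.89 to -3.14 with 1 library left out (above the threshold without knockout 49 or 50), -2.82 without wild-type 32 and 35 (adjusted p = 0.110) and -2.93 with the central nervous system score (adjusted p = 0.0787). With 1 library left out, ratio differences were -1.64 to -1.30 for Chrnb4/Chrnb2, 0.38 to 0.69 for Gabra5/Gabra2, -1.07 to -0.65 for Chrna3/Chrna7, and changed sign for Grin2b/Grin2a (-0.13 to 0.91), Grik1/Grik2 (-0.08 to 0.20) and Chrng/Chrne (-0.38 to 0.97). Tests with libraries left out rest on fewer libraries than the main fit. The causes of these changes were not tested. No paired analysis was possible because the groups share no replicate number. Depth limits knockout 49 most.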
